A study of Mus musculus with 32 samples.

Results

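The 8 genes described here, *Trem2*, *Tyrobp*, *Apoe*, *Gpnmb*, *Lgals3*, *Plin2*, *Cd63* and *Fabp5*, are grouped under the lipid-handling programme of macrophages that is tied to the receptor TREM2. They were taken by gene symbol from the 31053 genes listed, each symbol was found once, and 22571 genes of the series had a UMI in at least 3 kept cells. The genes were chosen by their measured values, namely their levels in cells with at least 2 UMIs of *Tyrobp*, their correlation among those cells and their levels in mesenchymal cells, so these values are given as a description with no test. The cells were bone marrow-derived stromal cells from Diversity Outbred (DO) mice, a genetically diverse outbred stock, that were grown in osteogenic medium (BMSC-OBs). Single-cell RNA-seq (scRNA-seq) libraries were made from 16 pools, each with the cells of 4 or 5 mice (77 mice in all), and every pool was sequenced in 2 runs. All pools had the same culture and no treatment, the labels used here give neither the age nor the sex of the mice, and the mice of a pool were not separated, so the pool is the replicate and the comparisons are between kinds of cells of the same pools.

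TREM2 is a lipid-sensing surface receptor of macrophages, microglia and osteoclasts, and it signals through the adaptor TYROBP (DAP12), which many other myeloid receptors share. APOE is a lipoprotein component that macrophages secrete and that TREM2 can bind. GPNMB and the tetraspanin CD63 are membrane proteins of lysosomes and late endosomes, galectin-3 (*Lgals3*) is a sugar-binding protein that gathers on damaged lysosomes, perilipin 2 (*Plin2*) coats lipid droplets, and FABP5 carries fatty acids in the cytosol. Macrophages that have taken up much lipid, such as foam cells, are known for high levels of several of these genes. In bone, macrophages and osteoclasts arise from shared myeloid precursors, and loss of TREM2 or TYROBP in people causes Nasu-Hakola disease, with bone cysts.

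The sequences just upstream of *Trem2*, *Gpnmb* and *Plin2* are shown because these genes were positively correlated within myeloid cells. Their levels outside those cells differed. In cells with at least 2 *Tyrobp* UMIs the median correlation over pools was 0.43 for *Trem2* with *Gpnmb*, 0.35 for *Gpnmb* with *Plin2* and 0.29 for *Trem2* with *Plin2*. Among the C1q cells described below alone it was 0.13, 0.19 and 0.19. Each run holds the 250 bases before the RefSeq start and the first 20 after it (GRCm38.p6, 5′ to 3′ on the gene's strand), and capitals mark matches on either strand to TGACTCA (an AP-1 site), CACGTG (an E-box), AGGTCA (a nuclear receptor half-site) or GAGGAA (a core of ETS-family sites such as that of PU.1).
Trem2, chr17:48346151-48346420, + strand: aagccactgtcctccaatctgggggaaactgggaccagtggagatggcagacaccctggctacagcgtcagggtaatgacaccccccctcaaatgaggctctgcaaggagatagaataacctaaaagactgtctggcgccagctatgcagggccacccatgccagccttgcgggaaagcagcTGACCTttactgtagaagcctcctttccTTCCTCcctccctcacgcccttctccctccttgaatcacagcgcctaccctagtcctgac
Gpnmb, chr6:49036268-49036537, + strand: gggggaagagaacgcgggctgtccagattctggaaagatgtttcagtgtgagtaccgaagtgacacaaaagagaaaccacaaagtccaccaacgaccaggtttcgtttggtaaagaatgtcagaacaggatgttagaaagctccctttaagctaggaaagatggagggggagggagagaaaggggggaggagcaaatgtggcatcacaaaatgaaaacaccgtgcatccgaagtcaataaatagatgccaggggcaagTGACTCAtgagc
Plin2, chr4:86670040-86670309, - strand: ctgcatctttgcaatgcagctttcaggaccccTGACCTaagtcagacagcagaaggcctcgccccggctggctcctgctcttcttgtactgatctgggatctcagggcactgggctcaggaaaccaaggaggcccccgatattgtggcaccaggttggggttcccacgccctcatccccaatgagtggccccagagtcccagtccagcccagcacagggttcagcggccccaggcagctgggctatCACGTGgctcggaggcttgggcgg
Counted from the start as +1, *Trem2* held AGGTCA on the opposite strand at -68 to -63 and GAGGAA on the opposite strand at -40 to -35. *Gpnmb* held TGACTCA at 9 to 15, and *Plin2* held CACGTG at -4 to 2 and AGGTCA on the opposite strand at -218 to -213. Windows were found for 6 of the 8 genes, all but *Tyrobp* and *Fabp5*. TGACTCA was in 5.20% of 32851 RefSeq windows of 300 bases and in the window of *Gpnmb* alone among the 6 genes, CACGTG in 7.15% and in *Plin2* alone. AGGTCA was in 16.3% of windows and in those of *Trem2* and *Plin2*, and GAGGAA in 28.3% and in those of *Trem2*, *Apoe* and *Cd63*. No motif was shared by more than 3 of the 6 genes, and a match is a description of these letters, not a measured site.

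The 16 pools of run 1 held 107853 barcodes and between 53990642 and 100777353 UMIs each, and 83906 cells were kept. Of these, 15143 cells (18.0%) had at least 2 *Tyrobp* UMIs, from 273 in pool 4 to 2153 in pool 2, with medians of 3047 to 7241 UMIs per cell. Myeloid cells were divided by markers that include none of the 8 genes. C1q cells (7832) had the complement genes *C1qa*, *C1qb* and *C1qc* at 20 or more UMIs per 10,000, and MHC II cells (416) had *H2-Aa*, *H2-Ab1*, *H2-Eb1* and *Cd74* at 20 or more with C1q genes under 20. Osteoclast-marker cells (623) had *Acp5*, *Ctsk*, *Mmp9*, *Atp6v0d2* and *Ocstamp* at 50 or more, granulocyte-marker cells (1450) had 7 granule genes such as *S100a8* and *Ngp* at 100 or more, and 4822 *Tyrobp* cells met none of these. These unclassified cells carried markers of other cells, with medians over pools of 25.9 UMIs per 10,000 of the mesenchymal genes, 15.5 of the leukocyte genes and 164 of the osteoblast genes, against 3.81, 35.9 and 16.8 in C1q cells. Mesenchymal cells (57350) had collagen and matrix genes at 20 or more and over 5 times the leukocyte genes, with fewer than 2 *Tyrobp* UMIs. Among them, 10405 were adipogenic-marker cells (*Adipoq*, *Lepr*, *Cxcl12*, *Hp* and *Agt* at 20 or more) and 29241 were osteoblast-marker cells (*Ibsp* and the *Bglap* genes at 300 or more). Genes not used for the division set C1q and osteoblast-marker cells apart. A list of 8 macrophage genes such as *Csf1r* and *Cd68* had a median over pools of 166 UMIs per 10,000 in C1q cells and 0.921 in osteoblast-marker cells. A list of 8 osteoblast genes such as *Sp7* and *Alpl* had 614 in osteoblast-marker cells and 19.6 in C1q cells. Other groups were less distinct: the macrophage list had 75.5 in granulocyte-marker, 67.4 in MHC II and 48.8 in unclassified cells, which had 137 of the osteoblast list. Pool 13 stood apart, with 59.6% of its *Tyrobp* cells in the mesenchymal range of collagen genes against a median of 8.78% over pools, and with the highest levels of *Trem2*, *Tyrobp*, *Gpnmb* and *Lgals3* in mesenchymal cells. In the MHC II, osteoclast-marker, T and B cells, 5, 7, 4 and 4 pools had the 20 cells needed for a value. Pairs of pools shared 3 to 28 barcodes (median 13).

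*Trem2* (ENSMUSG00000023992, chr17:48346401-48354147, + strand), the receptor, lay mostly in *Tyrobp* cells, which held 84.7% of its UMIs and 10.5% of the UMIs of all genes. Its level over 16 pools was lowest at 3.16 UMIs per 10,000 in pool 18, had a median of 5.39 and was highest at 10.5 in pool 1 (6.00 ± 2.27, mean ± SD). In mesenchymal cells the level was between 0.0163 and 0.237 with a median of 0.0562. The lowest pool in *Tyrobp* cells was above the highest in mesenchymal cells, the median fold within a pool was 95.6 and the smallest 21.8 (pool 13) or 36.7 without that pool. Taken as a mean over cells, which weights shallow cells more, the mesenchymal level was 0.1701 against 0.0725 from summed UMIs, so these folds depend on the way of averaging.

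*Tyrobp* (ENSMUSG00000030579, chr7:30413760-30417585, + strand), the adaptor, defined these cells, and mesenchymal cells were limited to fewer than 2 of its UMIs, so its levels in both are set by the choice. It was between 9.14 and 17.0 UMIs per 10,000 in the 16 pools, with a median of 13.9, and between 0.0226 and 0.338 in mesenchymal cells. It varied less over pools, relative to its mean, than the other 7 genes in these cells (13.4 ± 2.09, SD). Cells just inside the limit, with exactly 2 *Tyrobp* UMIs (2861 cells), had 2.30 *Trem2*, 8.47 *Gpnmb* and 36.9 *Lgals3* UMIs per 10,000. Cells just outside, with 1 UMI (8957 cells), had 0.512, 2.05 and 11.7, and 72.0% of them were in the mesenchymal range, against 41.4% at 2 UMIs and 19.96% at 3.

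*Apoe* (ENSMUSG00000002985, chr7:19696109-19699188, - strand), the secreted lipid carrier, was high in *Tyrobp* cells but not theirs alone. Its level there had a lowest value of 22.9 UMIs per 10,000 (pool 18), a median of 39.4 and a highest of 69.1 (pool 9). Mesenchymal cells had 0.978 to 8.28 with a median of 2.30, and the 2 sets of pools did not overlap. *Tyrobp* cells held 60.0% of all *Apoe* UMIs and adipogenic-marker cells 22.0%, beside 10.5% and 10.4% of the UMIs of all genes.

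The genes of lysosomes and late endosomes differed from each other. *Gpnmb* (ENSMUSG00000029816, chr6:49036546-49070929, + strand) ranged over pools from 5.05 UMIs per 10,000 in pool 18 to 30.2 in pool 2, with a median of 11.6, and was the most variable of the 8 genes in *Tyrobp* cells (SD of 7.40 on a mean of 13.5). Its mesenchymal level was between 0.0564 and 0.431, and the median fold was 95.1. As a mean over cells the mesenchymal level was 0.411 against 0.153 from summed UMIs. *Cd63* (ENSMUSG00000025351, chr10:128900989-128912822, + strand) went the other way. It had 7.68 to 16.3 UMIs per 10,000 in *Tyrobp* cells (median 12.4) and 16.5 to 22.1 in mesenchymal cells (median 19.5), and was lower in *Tyrobp* cells in 16 of 16 pools, with a median ratio of 0.65. *Tyrobp* cells held 7.36% of its UMIs and 10.5% of the UMIs of all genes.

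*Lgals3* (ENSMUSG00000050335, chr14:47367751-47386160, + strand), galectin-3, was lowest at 38.3 UMIs per 10,000 in pool 12, had a median of 63.0 and was highest at 91.9 in pool 3, and it was detected in 96.8% of *Tyrobp* cells on average over pools. Mesenchymal cells had 2.30 to 6.70, and the median fold was 14.7. *Plin2* (ENSMUSG00000028494, chr4:86648386-86670060, - strand), the lipid droplet coat, was lowest at 5.58 in pool 8, had a median of 7.34 and was highest at 19.0 in pool 1, against 0.403 to 1.07 in mesenchymal cells (median fold 13.8). *Fabp5* (ENSMUSG00000027533, chr3:10012548-10016607, + strand), the fatty acid carrier, had 5.02 to 19.7 in *Tyrobp* cells and 2.81 to 6.65 in mesenchymal cells. The pools' ranges of *Fabp5* overlapped, its level was higher in *Tyrobp* cells in 16 of 16 pools, and the median fold was 2.60. Mesenchymal cells held 68.4% of *Fabp5* UMIs beside 83.6% of the UMIs of all genes, and *Tyrobp* cells 25.7% beside 10.5%.

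**Figure D1:**
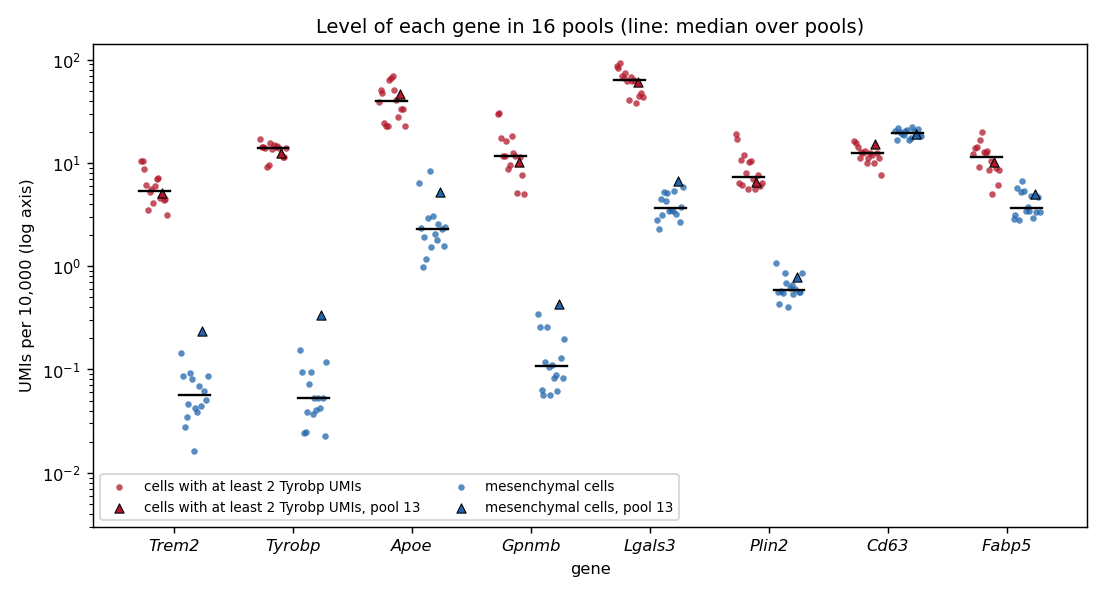
Level of each gene in UMIs per 10,000 (log axis) in cells with at least 2 *Tyrobp* UMIs (red) and in mesenchymal cells (blue), 1 point for each of 16 pools, with pool 13 as a triangle and a line at the median. *Trem2* and *Gpnmb* lie far apart between the cell kinds, the gap of *Tyrobp* is set by the choice of cells, *Fabp5* overlaps and *Cd63* is lower in *Tyrobp* cells.

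Over the groups of cells, the levels fell in a different order for each gene. *Trem2* had its highest medians in osteoclast-marker cells (9.01 UMIs per 10,000, 5.83 to 13.4 over 7 pools) and C1q cells (7.84, 5.54 to 12.8 over 16 pools), whose ranges overlapped. *Trem2* in MHC II cells was 1.253, 0.875, 0.685, 2.08 and 1.99 in pools 5, 6, 8, 9 and 18, and the next group, adipogenic-marker cells, lay below all 5 of these at 0.0136 to 0.494. Granulocyte-marker cells had 0 to 0.521 *Trem2* UMIs per 10,000 with a median of 0.0851. The range of *Trem2* in granulocyte-marker cells overlapped that of T cells (0 to 0.13).

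*Gpnmb* had medians of 34.4 in osteoclast-marker, 12.9 in unclassified *Tyrobp*, 11.7 in C1q and 11.5 in MHC II cells, each overlapping the next, and the part of mesenchymal RNA in the unclassified cells was not tested. All other groups were at or below 1.04. *Lgals3* had the same 4 groups on top (medians of 55.1 to 108), then granulocyte-marker cells at 8.56 to 16.7 with no overlap. *Plin2* fell from 15.1 in osteoclast-marker cells to 3.06 in granulocyte-marker, 1.63 in adipogenic-marker and 0.348 in osteoblast-marker cells. Its ranges in adipogenic-marker and osteoblast-marker cells did not overlap. *Apoe* was highest in C1q cells (median 70.6), and adipogenic-marker cells (13.4, 11.1 to 33.7) came after osteoclast-marker cells (50.7), next to unclassified *Tyrobp* cells (12.1, 5.49 to 20.5). *Cd63* was highest in osteoblast-marker cells (21.1, 17.4 to 24.7), and *Fabp5* in MHC II cells (20.4), where pool 9 had 3.46 and the other 4 pools 16.03 to 29.97.

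**Figure D2:**
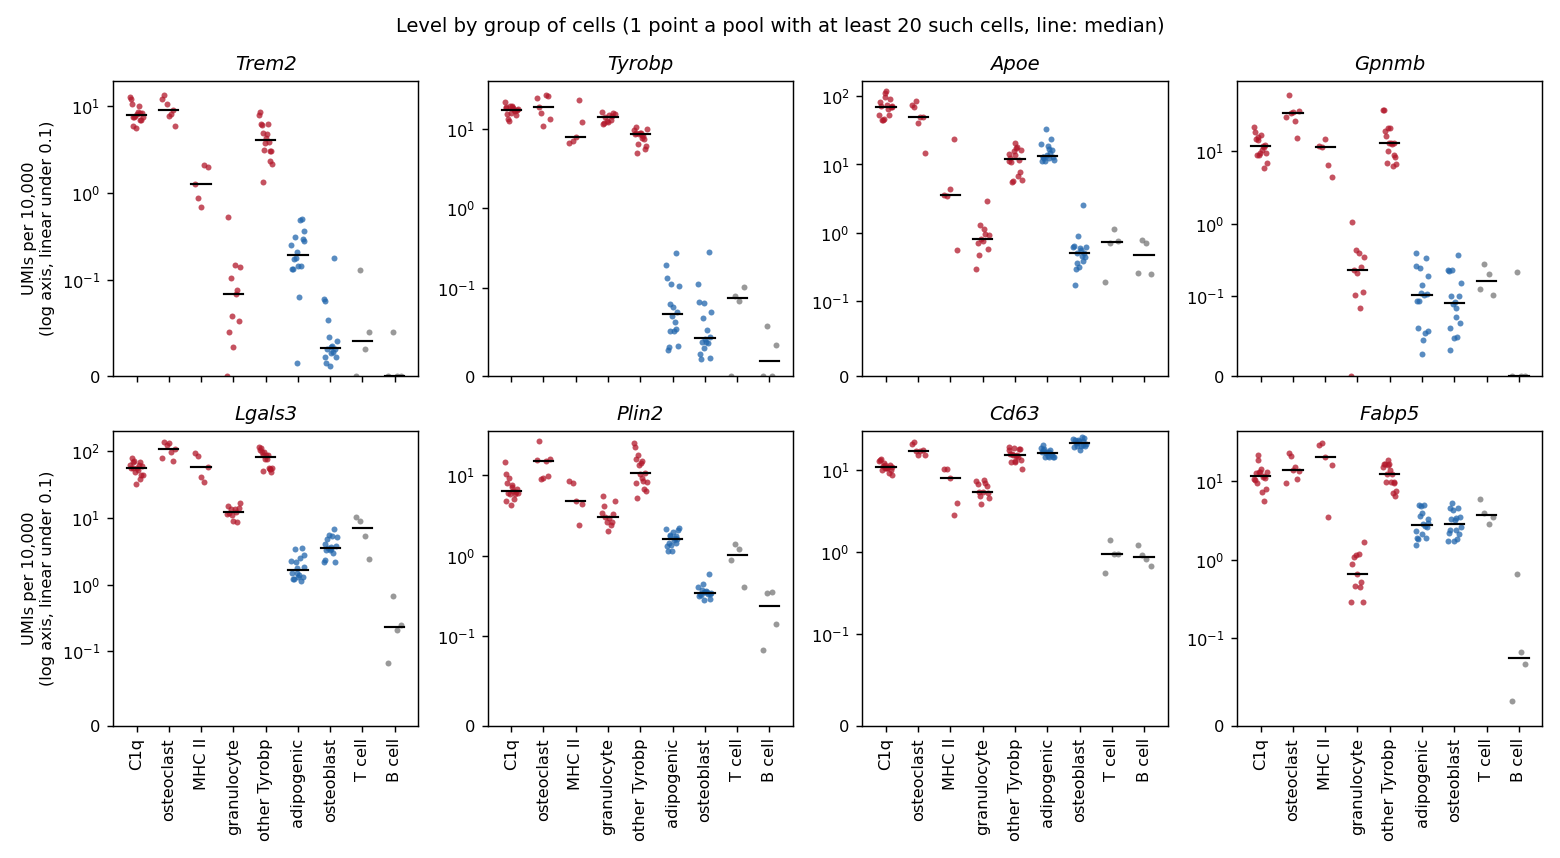
Level of each gene by group of cells, 1 point for each pool with at least 20 such cells and a line at the median, in UMIs per 10,000 on an axis that is logarithmic above 0.1 and linear below. Myeloid groups are red, mesenchymal groups blue and lymphocytes grey. *Trem2* and *Gpnmb* are lower in granulocyte-marker cells than in the other myeloid groups, *Tyrobp* was required in every myeloid group, and *Apoe* is high in adipogenic-marker cells.

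From cell to cell within the *Tyrobp* cells, the highest correlations were among *Gpnmb*, *Lgals3*, *Plin2*, *Fabp5* and *Trem2*, with no clear gap to the pairs of *Apoe*. Correlations are Spearman's over the cells of a pool, as the median of 16 pools. They are a description: the cells of a pool share a library, depth enters each value, and the myeloid groups above are mixed. *Lgals3* and *Plin2* had a median of 0.57 (0.43 to 0.80 over pools), *Lgals3* and *Fabp5* 0.56 (0.37 to 0.64), *Gpnmb* and *Fabp5* 0.52 and *Gpnmb* and *Lgals3* 0.50, all positive in 16 of 16 pools. *Trem2* had 0.45 with *Lgals3*, 0.43 with *Gpnmb*, 0.40 with *Fabp5*, 0.33 with *Apoe* and 0.29 with *Plin2*. Thinning each cell to 2000 UMIs left the median of all 28 pairs at 0.19 against 0.21.

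*Cd63* had a median of 0.19 over its 7 pairs, from -0.08 with *Tyrobp* to 0.25 with *Fabp5*. *Tyrobp* had a median of -0.03 over its 7 pairs (-0.11 with *Fabp5* to 0.19 with *Apoe* and *Trem2*), in cells chosen for at least 2 of its UMIs. With doublets kept the median was 0.09 for *Tyrobp* and 0.12 for *Cd63*, and without cells in the mesenchymal range it was -0.13 and 0.26. *Apoe* had 0.28 with *Gpnmb*, -0.02 with *Lgals3* and -0.06 with *Plin2*. Among C1q cells alone, *Apoe* and *Lgals3* had a median of -0.27, negative in 16 of 16 pools (-0.40 to -0.12), and -0.27 after thinning. *Apoe* and *Plin2* were also negative there, in 15 of 16 pools (-0.38 to 0.02). The links among *Lgals3*, *Plin2*, *Fabp5* and *Gpnmb* were lower but positive in C1q cells, from 0.19 for *Gpnmb* and *Plin2* to 0.48 for *Lgals3* and *Fabp5*. *Trem2* kept 0.34 with *Lgals3* but had 0.13 with *Gpnmb* and -0.01 with *Apoe*, and the median of the 28 pairs was 0.14. In mesenchymal cells it was 0.04.

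**Figure D3:**
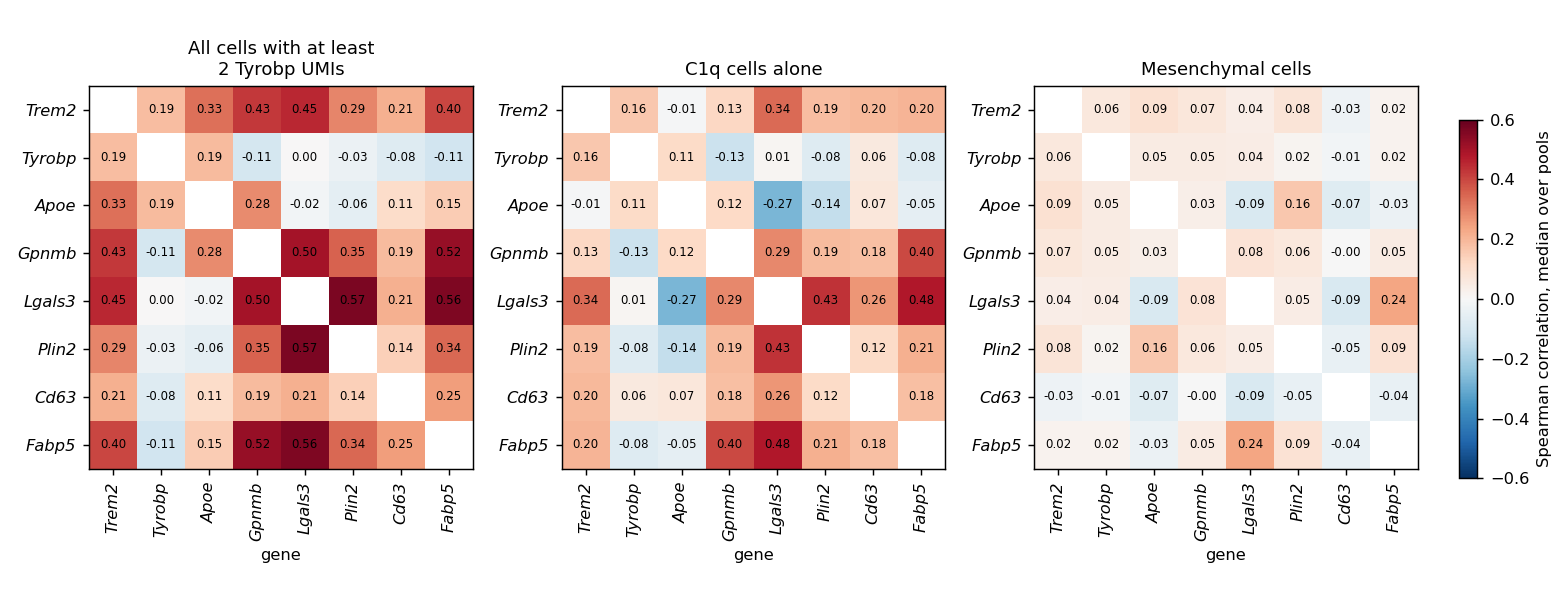
Spearman correlation of each pair of genes over the cells of a pool, as the median of 16 pools, in all cells with at least 2 *Tyrobp* UMIs, in C1q cells alone and in mesenchymal cells. In all *Tyrobp* cells the highest value is 0.57, for *Lgals3* and *Plin2*, and *Apoe* is negative with *Lgals3* among C1q cells.

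The genes outside the 8 most like *Trem2* in these cells were *Cd68* (median correlation 0.52 over 16 pools), *Ctsd* (0.52), *Ctsb* (0.49), *Capg*, *C1qa*, *C1qc*, *Ctsl*, *C1qb*, *Ctsz* and *C3ar1* (0.42). Most like *Gpnmb* were *Ctsb* (0.58), *Psap* (0.56), *Ctsd* (0.55), *Ctss*, *Ctsl*, *Cd68*, *Ctsa*, *Fam129b*, *Ctsz* and *Vat1* (0.42). *Ctsb*, *Ctsd*, *Ctsl*, *Ctss*, *Ctsa* and *Ctsz* encode lysosomal cathepsins and *Psap* the precursor of the saposins. Over the 5348 genes compared, the median was 0.04 for both, and 95% of genes lay below 0.20 for *Trem2* and 0.19 for *Gpnmb*. By correlation with *Trem2*, *Lgals3* ranked 5, *Gpnmb* 11, *Fabp5* 15, *Apoe* 46, *Plin2* 78, *Cd63* 220 and *Tyrobp* 302. With *Gpnmb*, *Fabp5* ranked 4, *Lgals3* 6, *Trem2* 12, *Plin2* 32, *Apoe* 80, *Cd63* 250 and *Tyrobp* 5174.

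The first comparison asked whether the genes differ between the C1q and the MHC II cells of the same pools, in the 5 pools with at least 20 cells of each. Here C1q cells were those with MHC II genes under 20. *Trem2* and *Apoe* were higher in C1q cells, and *Gpnmb*, *Lgals3*, *Plin2*, *Cd63* and *Fabp5* did not pass the test. Every myeloid cell had at least 2 *Tyrobp* UMIs by choice, so no difference in *Tyrobp* is read between myeloid groups here or later. *Trem2* had 7.52 to 10.2 UMIs per 10,000 in C1q cells (8.52 ± 1.01, SD) and 0.685 to 2.08 in MHC II cells (1.38 ± 0.63), with no overlap and a log2 fold change of 2.62 (SE 0.30, adjusted p = 0.000528). *Apoe* had 42.0 to 163 in C1q cells and 3.56, 3.49, 4.39, 23.7 and 0.559 in MHC II cells of pools 5, 6, 8, 9 and 18, with a log2 fold change of 4.23 (SE 0.61, adjusted p = 0.00198). Both held when any one pool was left out. Where pools are said not to overlap, here or later, the share of all genes that did so was not counted. These and all later tests are edgeR's quasi-likelihood test on UMI counts summed per pool and group with the pool as a block, adjusted by Benjamini-Hochberg over all genes tested, and a gene was called at an adjusted p of at most 0.05. Of 7972 genes tested here, 11.8% were called, 6.2% as higher and 5.63% as lower in C1q cells, so 2 of 8 members higher stands beside a background of 6.2%.

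For the 5 others, missing the threshold does not show that the groups were equal. *Cd63* was on the side of C1q cells (log2 fold change 0.68, SE 0.25, adjusted p = 0.11), *Fabp5* was on the other (-0.46, SE 0.39, adjusted p = 0.485), and *Gpnmb*, *Plin2* and *Lgals3* lay between -0.21 and 0.31. Without pool 9, *Fabp5* was called lower in C1q cells (-0.91, adjusted p = 0.00913). The list of 8 macrophage genes summed to 47.2 to 81.0 UMIs per 10,000 in the MHC II cells of these 5 pools, against 128 to 272 in such C1q cells over 16 pools, and its part in the result was not tested.

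A further 42 genes of the pathway were listed by role, of which 41 are in the files. In C1q against MHC II cells 40 were tested, and 13 were higher and 5 lower, beside 6.2% and 5.63% of all genes (15 and 4 with library totals alone, which moved the median of all genes by 0.12 and the higher share of calls from 52.4% to 66.6%). By list, 4 of 8 genes of receptor signalling, 5 of 8 of the lysosome, 2 of 7 of sterol handling and 2 of 5 of lipid uptake were higher, with 1 lower in the last. None of 6 genes of lipid storage and oxidation was higher and 1 was lower, and of 6 other lipid-macrophage genes none was higher and 3 were lower. *Ms4a7*, a membrane protein of macrophages, had a log2 fold change of 2.46 (SE 0.47), the fatty acid receptor *Cd36* 1.81 (SE 0.26) and the cholesterol exporter *Abca1* 1.59 (SE 0.20). The integrin *Itgax* (-2.30, SE 0.40), the receptor tyrosine kinase *Axl* (-2.12, SE 0.24) and the acyl-CoA synthetase *Acsl1* (-1.29, SE 0.20) were lower. The median of the 40 was 0.19, against -0.01 over all genes tested.

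The next comparison set osteoclast-marker cells against the C1q cells, with or without MHC II genes, of the same 7 pools. *Gpnmb*, *Lgals3*, *Plin2* and *Cd63* were higher in osteoclast-marker cells, and *Trem2*, *Fabp5* and *Apoe* did not pass. Here 21.1% of 8585 genes were called, 9.28% as higher and 11.9% as lower, and 4 of 8 members were called higher. *Gpnmb* had 15.1 to 60.1 UMIs per 10,000 in osteoclast-marker cells (median 34.4) and 11.4 to 21.6 in C1q cells (median 14.8). Its level was higher in 7 of 7 pools, the ranges overlapped, and the log2 fold change was 0.96 (SE 0.14, adjusted p = 8.92e-05). *Lgals3* had 70.9 to 138 against 43.3 to 77.3, a log2 fold change of 0.68 (SE 0.13, adjusted p = 0.000801). *Plin2* had 8.93 to 26.7 against 4.85 to 14.5 (0.77, SE 0.13, adjusted p = 0.000328), and *Cd63* 14.8 to 21.8 against 9.82 to 13.5 (0.49, SE 0.09, adjusted p = 0.000674), the one member whose pools did not overlap. *Plin2* was not called without the pool as a block (adjusted p = 0.0506) or without filters on cells (adjusted p = 0.0591).

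*Trem2* had a log2 fold change of -0.04 (SE 0.09). *Apoe* lay on the side of C1q cells, with 14.9 to 85.9 in osteoclast-marker cells and 44.9 to 121 in C1q cells, and just missed the threshold (-0.64, SE 0.22, adjusted p = 0.0513). Its adjusted p was between 1.95e-13 (no filter on low counts, log2 fold change -0.73) and 0.285 (no block) over the alternatives. It was also called without filters on cells (-1.59, adjusted p = 9.47e-05), with marker thresholds halved (-0.55, adjusted p = 0.00835), with doublets kept (-0.80, adjusted p = 0.0314), without pool 1 (-0.82, adjusted p = 0.0171) and without pool 3 (-0.78, adjusted p = 0.0219). Osteoclast-marker cells of the 7 pools also held C1q genes, at 14.3 to 51.3 UMIs per 10,000, against 60.2 to 80.1 in C1q cells over 16 pools, and the part of this in the result was not tested. With the marker thresholds halved, *Fabp5* was called higher (0.89, adjusted p = 1.12e-07), and without filters on cells *Trem2* was called lower (-0.35, adjusted p = 0.0063) in osteoclast-marker cells.

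Of 40 pathway genes tested there, 9 were higher and 15 lower, beside 9.28% and 11.9% of all genes, with a median of -0.27 against -0.01 over all genes. Library totals alone moved the higher share of all calls from 43.9% to 56.2% and gave 10 higher and 13 lower pathway genes. The receptor signalling list had no gene higher and 5 of 8 lower, lipid uptake 1 higher and 3 lower of 5, the lysosome 2 and 3 of 8, sterol handling 2 and 1 of 7, and lipid storage 2 and 0 of 6, and other lipid-macrophage genes 2 and 3 of 6. Lower were *Ms4a7* (-1.36, SE 0.14), the scavenger receptor *Msr1* (-1.19, SE 0.12), the shedding protease *Adam17* (-0.86, SE 0.13) and *Cd36* (-0.82, SE 0.16). Higher were *Itgax* (1.31, SE 0.24), lipoprotein lipase *Lpl* (0.74, SE 0.22), the lipid droplet protein *Plin3* (0.74, SE 0.13) and the cholesterol exporter *Abcg1* (0.65, SE 0.15).

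Granulocyte-marker cells were compared with C1q cells in 11 pools. Of 7395 genes 70.3% were called, 34.1% as higher and 36.2% as lower, so a call by itself says little here. *Trem2* had 0 to 0.521 UMIs per 10,000 in them (86 UMIs in all) and 5.54 to 10.1 in C1q cells. *Gpnmb* had 0 to 1.04 against 5.81 to 17.05 (234 UMIs in all in granulocyte-marker cells), *Fabp5* 0.285 to 1.69 against 5.60 to 21.03 (855 UMIs) and *Apoe* 0.288 to 2.92 against 44.9 to 121 (804 UMIs). The pools of these 4 genes did not overlap, but the share of all genes without overlap was not counted. No size of change is read from levels so near 0, and the part of free RNA in them was not tested. *Lgals3* fell by 1.59 on the log2 scale (SE 0.12), *Plin2* by 0.50 (SE 0.13) and *Cd63* by 0.40 (SE 0.10).

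With library totals alone in place of TMM, *Lgals3*, *Plin2* and *Cd63* kept their direction and call but had larger log2 fold changes of -2.07, -0.98 and -0.88. That change of scaling moved the median of all genes by -0.49 and the share of calls that were higher from 48.5% to 24.4%. Of 37 pathway genes tested, 31 were lower and 5 higher, with all 8 of the lysosome list and all 7 of sterol handling lower, beside 36.2% of all genes lower and 34.1% higher. Among those lower, *Cd36* had 70 UMIs in all in granulocyte-marker cells, *Ms4a7* 54, *Ms4a6d* 96 and *Msr1* 107, against 9085 to 12434 in C1q cells, and no fold change is given for them. *Hcst*, another adaptor of myeloid receptors (2.45, SE 0.09), *Acsl1* (2.14, SE 0.19), the tetraspanin *Cd9* (1.40, SE 0.11) and the phospholipase *Plcg2* (0.60, SE 0.16) were higher. *Plcg2* rested on the scaling, being higher per 10,000 in 5 of 11 pools and not called with library totals alone (0.11).

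**Figure D4:**
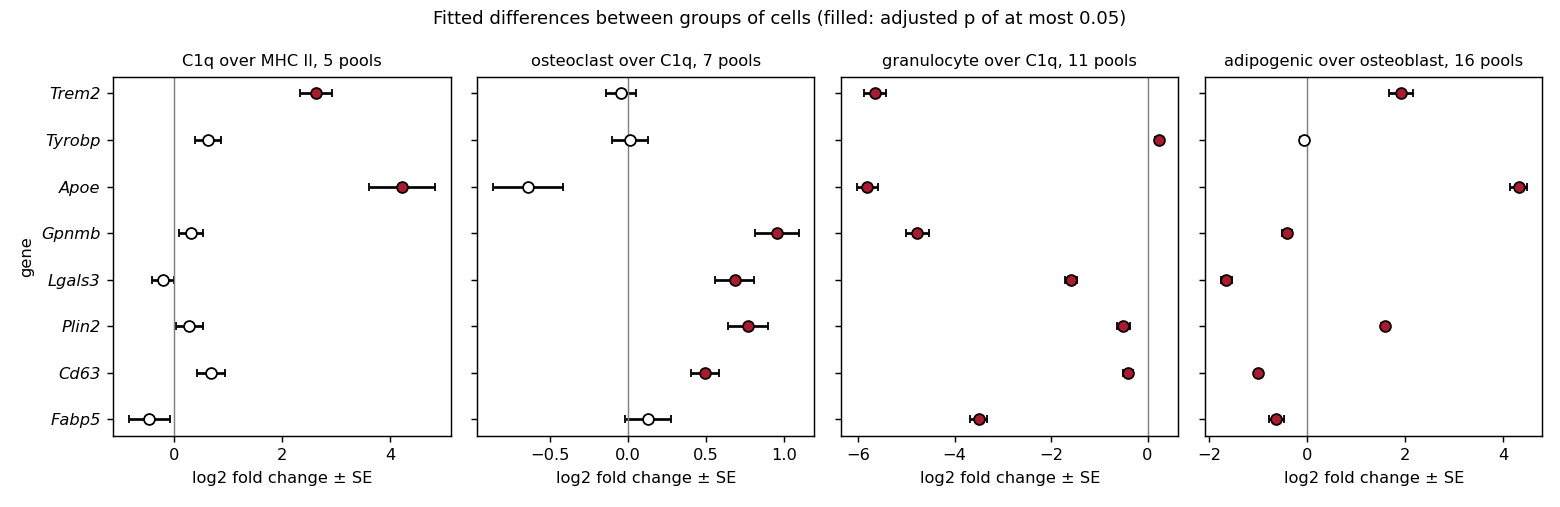
Fitted log2 fold change with its standard error for each gene in 4 comparisons, positive where the first named group is higher, with filled points for an adjusted p of at most 0.05. *Trem2* and *Apoe* differ between C1q and MHC II cells, and *Gpnmb*, *Lgals3*, *Plin2* and *Cd63* between osteoclast-marker and C1q cells. *Tyrobp* chose the cells and is not read, and the direction of *Gpnmb* in adipogenic-marker cells turned with library totals alone. The points of *Trem2*, *Gpnmb*, *Fabp5* and *Apoe* for granulocyte-marker cells, and of *Trem2* and *Gpnmb* for adipogenic-marker cells, rest on levels near 0. They are not read as sizes.

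The last comparison was within the mesenchymal cells, where the 8 genes were not all absent. Adipogenic-marker cells were set against osteoblast-marker cells of the same 16 pools, and 80.8% of 12626 genes were called, 41.5% as higher and 39.3% as lower. *Apoe*, *Plin2* and *Trem2* were called higher, *Lgals3*, *Cd63*, *Fabp5* and *Gpnmb* lower, and *Tyrobp*, held under 2 UMIs in both groups by choice, is not read, so 7 of 8 members stand beside a background of 80.8%. *Apoe* had 11.1 to 33.7 UMIs per 10,000 in adipogenic-marker and 0.167 to 2.55 in osteoblast-marker cells, a log2 fold change of 4.31 (SE 0.17, adjusted p = 5.17e-15). *Plin2* had 1.13 to 2.20 against 0.279 to 0.591 (1.58, SE 0.07, adjusted p = 4.22e-14), and neither gene's pools overlapped. *Lgals3* had 1.12 to 3.48 against 2.19 to 6.74 and was lower in 15 of 16 pools (-1.65, SE 0.12), and *Cd63* was lower in 16 of 16 (-0.995, SE 0.05).

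*Trem2* was low in both groups and higher in adipogenic-marker cells in 16 of 16 pools. Its level there was 0.0136 to 0.494 (median 0.194), against 0.0104 to 0.178 (median 0.0291) in osteoblast-marker cells, so the ranges overlapped. Its log2 fold change was 1.92 (SE 0.25, adjusted p = 4.43e-07). The calls of *Gpnmb* (-0.40, SE 0.10) and *Fabp5* (-0.62, SE 0.16) rested on the scaling: with library totals alone the median of all genes moved by 0.60, *Gpnmb* was 0.19 (adjusted p = 0.0702), and *Fabp5* -0.02 (adjusted p = 0.892). The share of calls that were higher went from 51.4% to 81.0%.

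Free RNA from lysed cells gives UMIs in droplets whose cell does not express a gene, so levels this low were set beside 2 measures of it. T cells and B cells, known by *Cd3* and *Cd79* genes, had at least 20 cells in 4 pools each. *Trem2* was 0, 0.13, 0.0285 and 0.0453 UMIs per 10,000 in T cells of pools 5, 6, 8 and 14 and 0, 0.0454, 0 and 0 in B cells of pools 4, 6, 10 and 12. *Gpnmb* was 0.102 to 0.273 in T cells, and its mesenchymal mean of 0.153 was 0.87 times the T cell mean of 0.175. The ratio was 1.42 for *Trem2* and 1.13 for *Tyrobp*. B cells, nearer to mesenchymal cells in depth, had lower means of 0.0114 for *Trem2*, 0.0230 for *Tyrobp* and 0.0540 for *Gpnmb*. The mesenchymal means of these genes were 0.0725, 0.0788 and 0.153, so the reading depends on which lymphocytes are taken. All these means set 16 pools against 4, and without pool 13 the mesenchymal mean of *Tyrobp* was 0.0615, below its T cell mean of 0.0696. *Lgals3*, *Plin2* and *Fabp5* had T cell means of 6.73, 0.967 and 4.03, against mesenchymal means of 4.07, 0.645 and 4.15, and B cell means of 0.303, 0.231 and 0.210. Thinned to 2000 UMIs, 62.4% of T cells had an *Lgals3* UMI and 39.5% a *Fabp5* UMI on average over pools. B cells had 3.71% and 4.66%. Expression of these genes by the T cells themselves was not tested, so their T cell levels cannot be taken as free RNA. Thinned to 2000 UMIs, 2.00% of mesenchymal cells had a *Trem2* UMI on average over pools, against 0.859% of T cells and 0.373% of B cells, at median depths of 12830, 4270 and 12309.5 UMIs per cell. *Apoe* in osteoblast-marker cells had a median over pools of 0.501 UMIs per 10,000 (0.167 to 2.55). T cells had 0.725 (0.187 to 1.14) and B cells 0.475 (0.246 to 0.784), so the ranges overlapped. The part of free RNA in the osteoblast-marker level, and so in the fold change of *Apoe* above, was not tested.

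The second measure was the ratio of each gene to the C1q genes, which RNA from 1 source keeps in every kind of cell. It refers to free RNA from *Tyrobp* cells only, and free RNA from mesenchymal cells would raise it. In *Tyrobp* cells the median was 0.17 *Trem2* UMIs for each C1q UMI (0.0930 to 0.321 over pools). In osteoblast-marker cells it was 0.14, or 0.89 times the ratio in *Tyrobp* cells of the same pool (0.55 to 1.296). In adipogenic-marker cells it was 0.53, or 3.69 times that ratio (0.54 to 13.1), and above it in 15 of 16 pools. *Gpnmb* stood at 1.09 times its ratio in adipogenic-marker cells (above 1 in 8 of 16 pools) and 1.36 times in osteoblast-marker cells (0.67 to 1.93, above 1 in 12 of 16), and *Tyrobp* at 0.65 and 0.64 times, with the mesenchymal cells chosen for fewer than 2 of its UMIs. *Plin2* (23.7 and 7.74 times), *Fabp5* (35.6 and 46.2) and *Lgals3* (3.40 and 12.2) exceeded theirs in 16 of 16 pools in both groups, as did *Apoe* (41.8 and 2.04) and *Cd63* (153 and 265). Mesenchymal cells held 26.6% of *Plin2*, 68.4% of *Fabp5*, 27.7% of *Lgals3*, 29.2% of *Apoe* and 88.7% of *Cd63* UMIs. For these genes a raised ratio therefore cannot tell expression in a cell from free RNA of other mesenchymal cells. The part of free RNA in the mesenchymal levels of *Gpnmb*, *Tyrobp*, *Trem2* and the other members was not tested further.

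**Figure D5:**
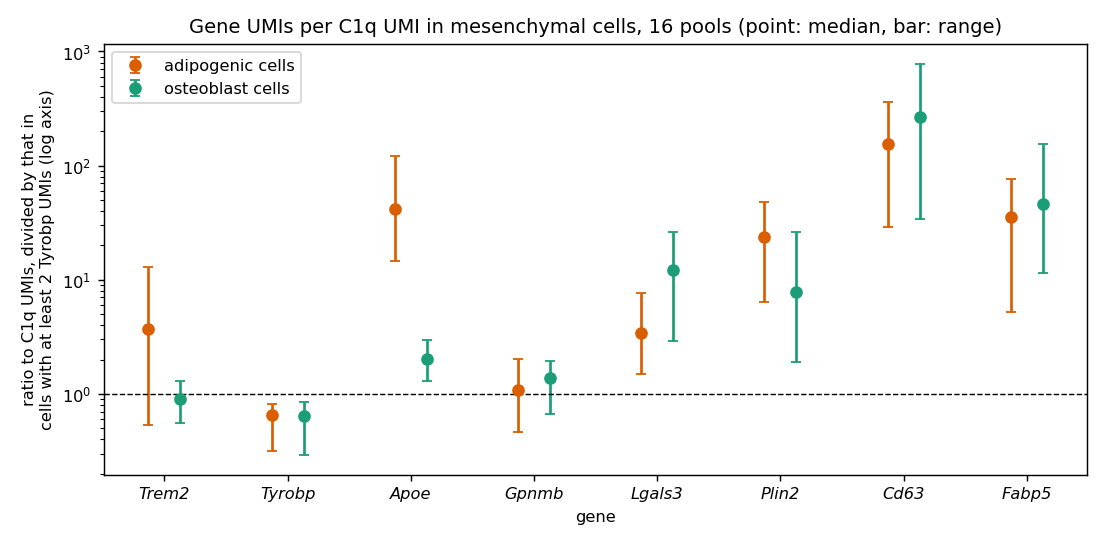
UMIs of each gene for each UMI of *C1qa*, *C1qb* and *C1qc* in adipogenic-marker and osteoblast-marker cells, divided by the same ratio in cells with at least 2 *Tyrobp* UMIs of the pool (log axis), as the median and range over 16 pools. The dashed line at 1 is the ratio in the *Tyrobp* cells. *Tyrobp* lies below it, *Gpnmb* spans it in both groups (medians of 1.09 and 1.36), and *Trem2* in adipogenic-marker cells has a median of 3.69 with a range that crosses the line, above it in 15 of 16 pools.

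Of 39 pathway genes tested in the same comparison, 15 were higher and 15 lower in adipogenic-marker cells, beside 41.5% and 39.3% of all genes. Highest was *Lpl*, with a log2 fold change of 6.73 (SE 0.25) and 22.8 ± 6.498 against 0.169 ± 0.132 UMIs per 10,000 (SD, n = 16), followed by the fatty acid carrier *Fabp4* at 6.05 (SE 0.25), the adipogenic regulator *Pparg* at 4.78 (SE 0.10) and *Abcg1* at 4.76 (SE 0.20). *Plcg2* (-2.24, SE 0.18), osteopontin *Spp1* (-2.11, SE 0.11), the receptor tyrosine kinase *Mertk* (-2.004, SE 0.11) and the protease *Adam10* (-1.69, SE 0.07) were lower. With library totals alone, 28 of the 39 were higher and 7 lower, where 81.0% of the calls over all genes were higher.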

How the data were processed

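Single-cell RNA-seq of BMSC-OBs from 16 pools was analysed. The authors' deposited matrices hold UMI counts per gene and barcode, made with Cell Ranger 5.0.0 on mm10 per the submitters' processing notes. Run HGYVNCCX2 was used and run HHFFMCCX2 served as an alternative. Barcodes were kept (88909) if they had 400 to 6200 genes and no more than 10% of UMIs from mitochondrial genes, 20% from *Rpl* and 15% from *Rps* genes, and 5003 (5.63%) were removed by a nearest-neighbour doublet score. Of cells with at least 2 *Tyrobp* UMIs, 2290 of 17433 were removed this way, and the score had low precision on simulated doublets, so doublets remain and many of the cells removed may have been single cells.

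Levels are summed UMIs of a gene over summed UMIs of the cells, times 10,000, per pool with at least 20 cells. Cells were divided by marker thresholds rather than clustered. The share of cells within a factor of 1.25 of a threshold was 0.218% to 12.5% over the 7 lists. Correlations used pools with at least 50 cells. UMI counts summed per pool and group were tested with edgeR 4.0.16 in R 4.3.3 (TMM, filterByExpr, quasi-likelihood, pool as block), where SE is the fold change over the root of F. The test was checked on simulated data, where it missed most of the changed genes in the comparisons with 5 and 7 pools and found most in the others, so a gene that did not pass in the former is not shown to be equal. The blocks are the droplets and mice of a pool, and the lowest correlation of same-pool deviations was 0.0497, 0.167, 0.0250 and 0.229 in the C1q with MHC II, osteoclast, granulocyte and adipogenic comparisons. DESeq2 1.42.0, Python 3.11.15, numpy 2.4.6, pandas 2.3.3, scipy 1.17.1, scikit-learn 1.9.0 and matplotlib 3.10.9 were also used.

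The 8 genes, the marker and pathway lists and the tests were chosen with earlier results of these data known. Pathway genes named are among the 4 highest and 4 lowest called in each comparison, some of which are not reported here, and the genes most like *Trem2* and *Gpnmb* are the 10 with the highest median correlation. Pools hold different mice. With the pool as a block, p-values measure how the difference between the compared groups varied from pool to pool, not the spread of levels between pools. Gene coordinates are from GENCODE M21 (GRCm38) and promoter sequences from RefSeq (GRCm38.p6). *Clec7a* of the pathway list was not analysed here.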

Additional observations from a re-analysis of the deposited data

Results flagged for a closer look

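In 32 groups of 4 to 10 pools, 6 values stood far from the other pools of their group, where chance gives about 1 in 20. *Apoe* in MHC II cells was 23.7 UMIs per 10,000 in pool 9, with the next pool at 4.39, and without pool 9 the log2 fold change of C1q over MHC II cells was 4.78 (adjusted p = 0.00132, edgeR). *Plin2* in osteoclast-marker cells was 26.7 in pool 2, with the next pool at 15.8, and without pool 2 its log2 fold change over C1q cells was 0.66 (adjusted p = 0.00224, edgeR). In the B cells of pool 6, *Fabp5* was 0.659 with the next pool at 0.0842, and *Gpnmb* was 0.216 and *Trem2* 0.0454 with the other 3 pools at 0, where any UMI at all would stand apart. *Tyrobp* in the 22 T cells of pool 5 was the lowest at 0, with the next pool at 0.0855. The rate of 1 in 20 does not hold for these last 3 values, which rest on few UMIs or on pools at 0.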

How the results depend on the processing

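Of 528 fold changes of the 8 genes under the alternatives, 499 kept their direction and side of the threshold, 14 lost and 12 gained a call and 3 reversed. With library totals alone, *Tyrobp* was -0.24 in granulocyte-marker against C1q cells, and *Tyrobp* was 0.54 and *Gpnmb* 0.19 in adipogenic-marker against osteoblast-marker cells. The correlation of *Trem2* with *Apoe* was -0.0069 in C1q cells alone, where the median of the 28 pairs was 0.14, against 0.28 at 4 or more *Tyrobp* UMIs. The *Tyrobp* level in *Tyrobp* cells (13.4) was 10.4 with doublets kept, 16.3 at 4 or more UMIs, 15.8 without cells in the mesenchymal range and 15.6 as a mean over cells. As a mean over cells, mesenchymal levels were 0.1701 for *Trem2*, 0.240 for *Tyrobp*, 5.18 for *Apoe*, 0.411 for *Gpnmb* and 0.917 for *Plin2*. Called genes in C1q against MHC II cells (943) were 1722 with no filter on low counts and 472 to 1026 with 1 pool left out (535 without pool 5, 472 without pool 6 and 591 without pool 18). In osteoclast-marker against C1q cells (1815) they were 3080 without cell filters. The causes were not tested. With no replicate block, calls were 1101, 1199, 5209 and 9512 in the 4 comparisons, against 943, 1815, 5202 and 10199 with it, and *Plin2* in osteoclast-marker cells (adjusted p = 0.0506, edgeR), *Tyrobp* in granulocyte-marker cells (0.0684) and *Gpnmb* in adipogenic-marker cells (0.348) were not called. *Tyrobp* in granulocyte-marker cells was also not called by DESeq2 (0.328) or without pool 4, 14 or 17 (0.0567 to 0.0667). Doubled thresholds left too few pools for the osteoclast comparison, and pool 13 has too few cells for the C1q with MHC II and granulocyte comparisons. *Tyrobp* chose the cells of every group, so its fold changes are given only for completeness.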
